A study of Homo sapiens with 6 samples.

Results

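The transcriptome described here is that of WM266.4 cells transfected with the negative control siRNA (neg.si), the reference condition of a study that silenced the kinase RIPK4. WM266.4 is an established human line of metastatic melanoma that carries an activating mutation of BRAF, and it stands here for a single line grown on plastic. The 3 neg.si libraries were taken by their labels from the 6 libraries of the series, and the other 3 libraries, from cells given siRNA against RIPK4, were not used. The neg.si cells received a commercial siRNA without a human target, and RNA was collected 48 h after transfection in independent experiments, so the values hold the response to transfection itself and include no untransfected culture. The table listed 24526 genes with at least 6 counts over all 6 libraries, so which genes have a row depends on the RIPK4 siRNA libraries too. A gene with no row in it is named below as not analysed here, which says nothing about its level.

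Melanocytes are pigment cells of neural crest origin. The transcription factors MITF and SOX10 drive the genes of the melanosome, the organelle in which tyrosinase and its relatives make melanin from tyrosine, and melanoma cells can keep this program or lose it in favour of a dedifferentiated, mesenchymal one. Most melanomas depend on signalling through RAS, RAF, MEK and ERK, which is kept on by mutated BRAF or NRAS and read out by ERK target genes such as the DUSP and SPRY families. Loss of CDKN2A removes a brake on the cell cycle.

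The neg.si replicates 1, 2 and 3 held 31688095, 30539087 and 30056850 read pairs assigned to genes. The level of a gene is given in TPM, its count divided by the merged length of its exons and scaled to a sum of 1000000 in each library, always in the order of replicates 1, 2 and 3, and a mean is followed by the SD over the 3 libraries. A gene was counted as on at 1 TPM or more in each library, off under 0.1 TPM in each, and between otherwise. For a gene of the median exon length, 3601 bases, 1 TPM stood for 36.0, 34.9 and 31.4 counts, and a count of 0 allowed a level of up to 0.0947, 0.0982 and 0.0998 CPM (counts scaled to a total of 1000000 per library), which covers counting error only. Replicates 1 and 3 differed most from each other, and the difference followed the GC content of the genes. Over 8983 protein-coding genes, Spearman's rho across genes between GC content and the deviation of the library from the mean of the 3 was 0.737 in replicate 1, 0.320 in replicate 2 and -0.750 in replicate 3. The order of genes of unlike GC content within 1 library carries this difference too, and it depends on the length by which each count is divided.

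The label was checked against marker genes first, and the melanosome and pigment genes were far above the keratinocyte, immune and endothelial markers. The 19 melanosome and pigment genes summed to 3962, 3749 and 4327 TPM. The 11 keratinocyte and epithelial markers that were analysed summed to 18.6, 16.8 and 20 TPM, the 8 immune markers to 9.37, 8.06 and 8.06 TPM and the 5 endothelial markers to 2.26, 2.48 and 2.62 TPM. Of the keratinocyte markers, KRT10 at 15.5, 14.5 and 17.7 TPM and FLG at 1.43, 1.64 and 1.75 TPM were on. A further 7 were between on and off, KRT5, KRT14, TP63, CDH1, EPCAM and SFN among them, and DSG3 and DSC3 were off. Those 7 genes between on and off included the basal keratins KRT5 and KRT14, with counts in replicate 1 only, and the epithelial adhesion gene CDH1 (E-cadherin) at 0.23, 0.187 and 0.0189 TPM. Among the immune markers, PTPRC, which encodes the pan-leukocyte antigen CD45, was off at 0.0453, 0.0668 and 0.0892 TPM, while the myeloid genes ITGAM (2.97, 3.33 and 2.52 TPM) and CD14 (4.19, 1.56 and 2.72 TPM) were on at low levels. None of the 5 analysed endothelial markers was on in all 3 libraries, the highest means being those of TEK at 1.04, 0.708 and 1.41 TPM and KDR at 0.709, 1.19 and 0.706 TPM, with KDR the higher in replicate 2. KRT1, IVL, LORICRIN, GRHL2, MS4A1, CD68, CDH5 and ERG were not analysed here.

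Fibroblast and Schwann cell markers were mixed. The 8 fibroblast markers analysed summed to 222, 225 and 333 TPM, and the 7 Schwann cell and neuron markers to 710.5, 687 and 784 TPM. The latter sum exceeded that of the 7 melanocyte transcription factors, 609, 625 and 711 TPM, in every library. Of 8 fibroblast markers, COL1A2, which encodes the second chain of type I collagen, stood at 182, 181 and 276 TPM and the surface protease FAP at 35.3, 40.3 and 55.1 TPM, and THY1 was on at a mean of 2.18 TPM. The partner chain COL1A1 was off at 0.0998, 0.0572 and 0.0 TPM, with 0 counts in replicate 3, and so was the dermal proteoglycan DCN, while LUM, PDGFRA and COL3A1 were between. The type I collagen chains thus lay on opposite sides of both limits in every library. Schwann cells share the neural crest origin of melanocytes, and genes known from their membrane or myelin were on in all libraries. The cadherin CDH19 stood at 75.8, 87.9 and 133 TPM and the myelin basic protein gene MBP at 47.8, 38.5 and 35.9 TPM. The neuron markers RBFOX3 and NEFL were off, the synaptic vesicle gene SYP was on at a mean of 1.73 TPM, and SNAP25 and STMN2 were not analysed here. PDPN, a further fibroblast marker, was not analysed here either. In bulk RNA, fewer cells of a type and less RNA per cell cannot be told apart, and whether any of these levels came from other cells in the cultures was not tested.

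Of the 24416 genes with a level, 13444 (55.1%) were on, 9577 lay between and 1395 were off. Among 15277 protein-coding genes, 11317 (74.1%) were on and 806 were off, with a median level of 9.75 TPM. The bulk of the genes that were on lay in the middle of the range, with 5483 (40.8%) at a mean of 1 to 10 TPM and 6823 (50.8%) at 10 to 100 TPM. Above that, 1063 genes reached 100 to 1000 TPM, 65 reached 1000 to 10000 TPM and 10 exceeded 10000 TPM, and all 10 of the last group were encoded by mitochondrial DNA. In the counts, 553, 570 and 684 genes held 50% of a library and 5166, 5173 and 5366 genes held 90%. The share of protein-coding genes that were on varied little by chromosome, from 69.9% on chromosome 21 to 79.3% on chromosome 13, and the median level of the genes on ranged from 11.4 TPM on chromosome 16 to 26.6 TPM on chromosome 20.

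**Figure D1:**
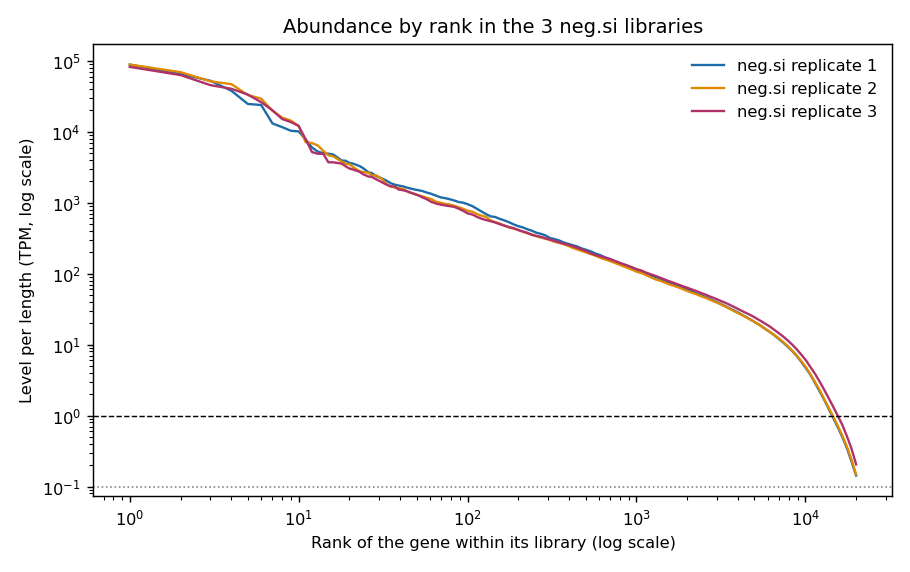
Level per length (TPM, log scale) against the rank of the gene within its library (log scale), 1 line per neg.si library, with the limits for on (1 TPM, dashed) and off (0.1 TPM, dotted). The lines start between 82148 and 88705 TPM and cross along the ranks, replicate 1 being highest at rank 100 and replicate 3 from 10 down to 1 TPM. Replicate 3 held more genes above 1 TPM (15557) than replicates 1 and 2 (14372 and 14517).

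The most abundant transcripts came from the mitochondrial genome. MT-CO2, subunit 2 of cytochrome c oxidase, led with 88394, 88705 and 82148 TPM, followed by subunit genes MT-CO1 at 65521, 69249 and 63029.9 TPM and MT-CO3 at 52424, 51509.7 and 40354 TPM and by the complex I gene MT-ND4 at 37832, 46939.9 and 45458 TPM. The order of these 4 was the same in replicates 1 and 2, and in replicate 3 MT-ND4 stood above MT-CO3. The 17 mitochondrial genes in the table, 16 of them on, held 11.1%, 12.8% and 10.8% of the counts and, being short, a larger share of the level per length, 35.9%, 41% and 37.7% of all TPM. They include the ribosomal RNA gene MT-RNR2 at 11625, 15829 and 13683 TPM. MTATP6P1, a nuclear pseudogene on chromosome 1 that is a near-identical copy of MT-ATP6, was listed at 4698, 4664 and 4889 TPM, and reads of the copies cannot be told apart with certainty.

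Outside the mitochondrial genome, the 15 genes highest by mean level were of several kinds. The glycolytic enzyme gene GAPDH held the first place at 7797, 6938 and 4905 TPM. FTL, the ferritin light chain, stood at 6001, 3974 and 2943 TPM, and LGALS1, which encodes galectin-1, at 4915, 2715 and 1949 TPM. Replicate 1 was the highest library and replicate 3 the lowest for each of these 3 genes. LOXL4, a lysyl oxidase that cross-links matrix proteins, was steadier at 3938, 3799.8 and 3557 TPM, and so was VIM, the intermediate filament of mesenchymal cells, at 3279, 3496 and 3665 TPM. FN1, fibronectin, stood at 2059, 2426 and 3252 TPM and was highest in replicate 3. In raw counts FN1 was the most abundant nuclear gene, with 354741, 405315 and 487753 read pairs, or 1.12%, 1.33% and 1.62% of a library. The protease inhibitor SERPINE2 stood at 2126, 2401 and 2724 TPM, the elongation factor EEF1A1 at 2751, 2411 and 2318 TPM, the chaperone HSP90AB1 at 2633, 2640.2 and 2749 TPM and the endoplasmic reticulum chaperone CALR at 2668, 2176 and 2347 TPM. The rest of the top 15 nuclear genes by level were ENO1, RPL41, RPS12 and TMSB10, with means of 3074, 3027, 2913 and 2753 TPM.

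Gene groups of the translation machinery had a larger spread between cultures than matrix genes, the median coefficient of variation (CV) being 31.9% for ribosomal protein genes, 29.3% for elongation factors and 14.1% for matrix genes. The 86 genes of cytosolic ribosomal proteins held 5.66%, 4.27% and 3.25% of the counts, and of the 80 above 10 CPM, 76 were highest in replicate 1. The 18 glycolysis genes took 2.54%, 2.34% and 1.80% and the 6 translation elongation factors 1.24%, 1.07% and 0.931%, again highest in replicate 1. The 23 genes of the extracellular matrix and its enzymes held 3.92%, 4.09% and 4.37%, a difference no larger than that of FN1 alone, and of the 22 above 10 CPM, 10 were highest in replicate 1 and 7 in replicate 3. Over 8983 protein-coding genes of at least 10 CPM, 44.8% were highest in replicate 1 and 40.1% in replicate 3. The 15 actin, tubulin and vimentin genes held 1.39%, 1.32% and 1.17%. The 12 endoplasmic reticulum chaperones held 1.39% ± 0.0934% (SD, n = 3) and the 11 cytosolic heat shock proteins 0.818% ± 0.0153% of the counts. The Wilson 95% intervals of the shares in this paragraph reached at most 0.00804 percentage points to each side, for the ribosomal protein genes, and 0.00319 for the heat shock proteins, each below the SD between libraries of the same share.

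All 7 melanocyte transcription factors of the list were on, against 74.1% of all protein-coding genes. SOX10, the neural crest factor, stood at 274, 246 and 219 TPM, and MITF, the lineage's central regulator, at 121, 149 and 195 TPM. SOX10 was the higher in every library, and the gap was widest in replicate 1, while in counts not divided by length MITF was the higher in replicate 3. LEF1, a nuclear partner of beta-catenin, stood at 144, 146 and 183 TPM, within the range of MITF. SNAI2 followed at 37.9, 46.8 and 61.9 TPM, then IRF4, which works with MITF at the tyrosinase gene, at 18.8, 25.1 and 37 TPM, TFAP2A at 9.35, 8.70 and 11.2 TPM and PAX3, an upstream factor of MITF, at 3.70, 3.78 and 4.61 TPM. The last 4 did not overlap with one another, and PAX3 was the lowest factor in each library. SOX10 lay above 97.0% of the genes that were on, and MITF above 94.8%.

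The pigment genes were on but spanned a wide range, and 18 of 19 (94.7%) passed the limit, against 74.1% of all protein-coding genes. Tyrosinase, TYR, the rate-limiting enzyme of melanin synthesis, stood at 1725, 1638 and 1724 TPM (1696 ± 49.9 TPM, n = 3), place 21 among nuclear genes. Its relatives were lower. DCT, dopachrome tautomerase, stood at 259, 267 and 394 TPM and TYRP1 at 22.4, 25 and 25.8 TPM. The level of TYR was 6.65, 6.13 and 4.37 times that of DCT, and that of DCT 11.6, 10.7 and 15.3 times that of TYRP1, with no overlap of ranges within this family. The melanosome protein GPNMB stood at 1028, 947 and 1275 TPM, PMEL, whose fibrils carry the pigment, at 263, 235 and 248 TPM, and the melanosome traffic GTPase RAB38 at 316, 299.8 and 304 TPM. MLANA, which encodes the diagnostic antigen Melan-A, was steady and low by comparison at 13.5, 13.7 and 13.6 TPM, under the level of TYRP1 in each library. Of the melanosome transporters, SLC45A2 was at 106, 109 and 111 TPM and SLC24A5 at 61.4, 52.9 and 51.5 TPM, while OCA2 alone missed the limit at 0.0307, 0.0317 and 0.317 TPM, with its highest level in replicate 3. The receptor GPR143 stood at 49.3, 45 and 42.7 TPM. MREG was at a mean of 60.5 TPM, the transport genes MYO5A, MLPH and RAB27A at 19.7, 11.9 and 10.2 TPM, and the lysosome-related organelle genes HPS4 and BLOC1S1 at 9.13 and 6.82 TPM. TRPM1, a channel gene first found as melastatin, was at 2.93 TPM and the copper transporter ATP7A at 1.55, 2.23 and 4.47 TPM, highest in replicate 3.

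**Figure D2:**
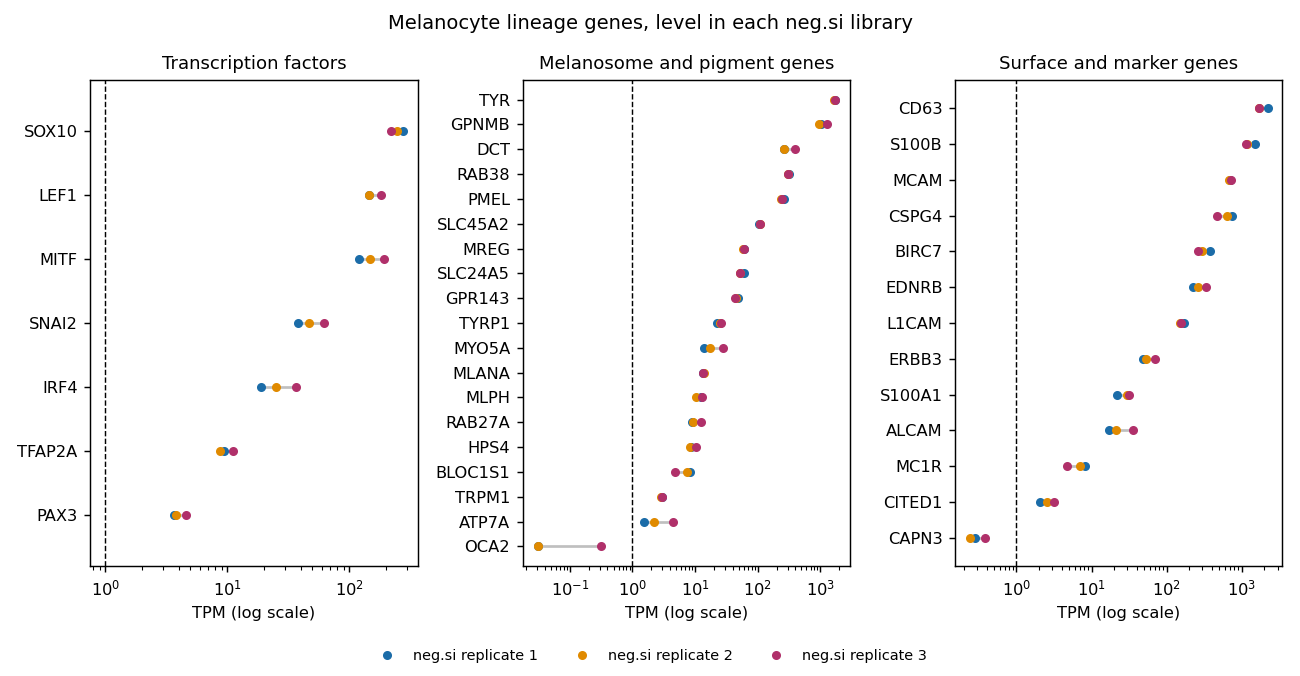
Level of each melanocyte lineage gene analysed (TPM, log scale) in the 3 neg.si libraries, with a grey bar from the lowest to the highest library and a dashed line at 1 TPM. SOX10 and TYR top their lists at means of 246 and 1696 TPM, and OCA2 and CAPN3 are the genes left of the line.

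MITF binds short boxes with the letters TCATGTG (the M-box) or TCACGTG, so the 250 bases before the start of each lineage gene in the RefSeq promoters (GRCh38.p14) were searched for these letters on both strands. Both boxes hold the E-box core CANNTG, and TCACGTG followed by A reads as a match on either strand. Promoters of 33 of the 40 genes on the 3 melanocyte lists were in the table. At least 1 match was found for 8 of 16 pigment genes (50%), for 1 of 12 surface genes (8.33%) and for 0 of 5 transcription factors, against 1909 of all 27305 gene symbols (6.99%) and 5.75% of all 35116 promoters. The windows below are shown because they belong to pigment genes with levels from 24.4 to 1696 TPM. They run 5′ to 3′ on the strand of the gene, with the match in capitals and positions counted from the start site, and a match on the opposite strand reads CACATGA.
TYR (chr11:89177753-89177793, plus strand, match at position -105): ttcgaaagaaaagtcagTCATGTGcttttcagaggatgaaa
DCT (chr13:94479794-94479834, minus strand, match at position -135): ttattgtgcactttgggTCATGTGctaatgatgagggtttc
TYRP1 (chr9:12693223-12693263, plus strand, match at position -145): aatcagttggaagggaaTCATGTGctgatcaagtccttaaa
GPNMB (chr7:23246696-23246736, plus strand, match at position -62): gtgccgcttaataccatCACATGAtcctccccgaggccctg
GPR143 (chrX:9765885-9765925, minus strand, match at position -61): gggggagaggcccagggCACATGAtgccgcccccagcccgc
SLC24A5 (chr15:48120949-48120989, plus strand, match at position -15): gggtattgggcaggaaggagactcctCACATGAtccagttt

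DCT, GPR143 and GPNMB each held a further TCATGTG in the same 250 bases, BLOC1S1 and ATP7A held TCACGTG, and CD63 was the surface gene with a match, in 1 of its 8 listed promoters. The levels of the genes with a match were not alike, from 1725, 1638 and 1724 TPM for TYR to 1.55, 2.23 and 4.47 TPM for ATP7A, and MLANA, OCA2, TRPM1 and MYO5A had no match in this window. A match of letters does not show a bound site. SOX10, SNAI2, PMEL, SLC45A2, RAB38, S100B and ERBB3 were the lineage genes with no promoter to search.

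Of 13 melanocyte surface and marker genes analysed, 12 (92.3%) were on, against 74.1% of all protein-coding genes. CD63, a tetraspanin of melanosomes and other late endosomes, stood at 2208, 1698 and 1691 TPM and the diagnostic marker S100B at 1479, 1178 and 1129.9 TPM, both highest in replicate 1. MCAM, the melanoma adhesion molecule, stood at 704, 674 and 730.0 TPM and the melanoma proteoglycan CSPG4 at 753, 631 and 469 TPM. Their ranges overlapped, and CSPG4 was the higher in replicate 1 only. BIRC7, an inhibitor of apoptosis known as livin, was at 373, 292 and 262 TPM, the endothelin receptor EDNRB at 224, 265 and 331 TPM and the adhesion molecule L1CAM at 169, 151 and 153 TPM. Lower on the list were ERBB3, S100A1 and ALCAM at means of 56.9, 27.8 and 24.8 TPM. MC1R, the receptor for melanocortin, was at 8.08, 6.93 and 4.70 TPM, with 51.8% of its exon bases clear of other genes, and CITED1 at a mean of 2.56 TPM. CAPN3 was between at 0.282, 0.242 and 0.377 TPM, and KIT was not analysed here.

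Of 22 analysed genes known from dedifferentiated or invasive melanoma, 19 (86.4%) were on beside the pigment genes, against 74.1% of all protein-coding genes. Their median level was 18.7 TPM, against 9.75 TPM for all protein-coding genes. The matrix protein TNC led at 534, 550.4 and 704 TPM, followed by NT5E, the ectoenzyme CD73, at 286, 342 and 412 TPM, FOSL1, an AP-1 subunit, at 156, 169 and 154 TPM and the receptor kinase AXL at 137, 161 and 165 TPM. AXL and MITF are often described as opposite in melanoma, and here their ranges overlapped, with AXL the higher in replicates 1 and 2 and MITF in replicate 3. THBS1, LOXL2 and CCN2 had means of 107, 93 and 83.3 TPM. NGFR, the neural crest receptor CD271, stood at 69.5, 56.7 and 44.6 TPM, FOXD3 at 27.8, 23 and 18.3 TPM and SOX9 at 17.6, 16.3 and 23.7 TPM. SOX10 thus exceeded SOX9 in each library without overlap. TEAD4, ZEB1, TGFBI, CCN1, JUN, AQP1, TWIST1 and PDGFRB were on at means from 1.41 to 18.2 TPM. SOX2 at 0.955, 1.03 and 0.96 TPM straddled the limit, WNT5A was between at 0.335, 0.706 and 1.46 TPM, and EGFR was at 0.0564, 0.103 and 0.0072 TPM, while ROR2 was not analysed here.

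The RAS-RAF-MEK-ERK cascade was on throughout, with all 23 analysed genes above the limit, against 74.1% of all protein-coding genes. KSR2 was not analysed here. Of the RAS genes, NRAS stood at 73.8, 94.6 and 180.4 TPM and HRAS at 28.1, 25.8 and 23.1 TPM. The ranges did not overlap, yet the gap moved between cultures, NRAS being 2.63, 3.67 and 7.81 times HRAS. The RAF kinase BRAF stood at 5.34, 6.80 and 9.39 TPM, below ARAF at 36, 33.1 and 30.7 TPM, without overlap. This order rests on the length, 23433 bases of merged exons for BRAF and 3409 for ARAF, since BRAF had the more counts in every library, 1252, 1545 and 1917 against 1227, 1094 and 913. MAP2K2 (MEK2) was at 82.2, 56.9 and 40.1 TPM, highest in replicate 1, and stood above MAP2K1 (MEK1) at 2.56, 2.04 and 1.43 times its level. MAPK3 (ERK1) was at 53.2, 44.1 and 34.1 TPM. Upstream, the adaptor SHC1 had the highest mean of the list, at 176, 163 and 138 TPM and GRB2 was at 73.8, 73.5 and 72 TPM. The exchange factors SOS2 and SOS1 had means of 22.8 and 8.20 TPM, the phosphatase PTPN11 39.3 TPM, and the RAS-related genes RRAS, MRAS and RRAS2 59.1, 30.2 and 22.9 TPM. The RAS brakes were on as well, SPRED1 at 58.3, RASA1 at 27.6, RASA2 at 27.5 and NF1 at 9.62, 13.9 and 19 TPM. The scaffold KSR1 had the lowest mean of the list, at 2.0, 2.72 and 1.74 TPM.

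The output genes of ERK signalling were high in every library. All 16 were on, 11 above 100 TPM, with a median of 182 TPM against 9.75 TPM for all protein-coding genes. The cell cycle target CCND1 led at 344, 375 and 535 TPM, followed by the feedback inhibitor SPRY4 at 294, 315 and 417 TPM and DUSP4, a phosphatase of ERK in the nucleus, at 314, 301 and 352 TPM. SPRY4 and DUSP4 overlapped in range. The cytosolic ERK phosphatase DUSP6 stood at 259.5, 248 and 297 TPM, 1.87, 1.87 and 2.18 times the level of DUSP5, and SPRY2 stood at 220.2, 244 and 271 TPM, 3.55, 3.52 and 3.79 times the level of SPRY1. IER3 at 313, 206 and 178 TPM was highest in replicate 1 and PHLDA1 at 114, 155 and 309 TPM in replicate 3, the widest spread of the list. ETS factors ETV4 and ETV5 stood at 239, 197 and 172 TPM and at 156, 161 and 200.3 TPM, and ETV1 at 58.6 TPM. The early genes EGR1 and MYC were at 59.4, 65.8 and 73.8 TPM and at 64.5, 60.3 and 59.7 TPM, SPRED2 was at 62.2 TPM, and FOSL1 is given above. The median CV between cultures of the 16 outputs, 9.66%, stood beside 20.5% for the 22 cascade genes of at least 10 CPM.

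**Figure D3:**
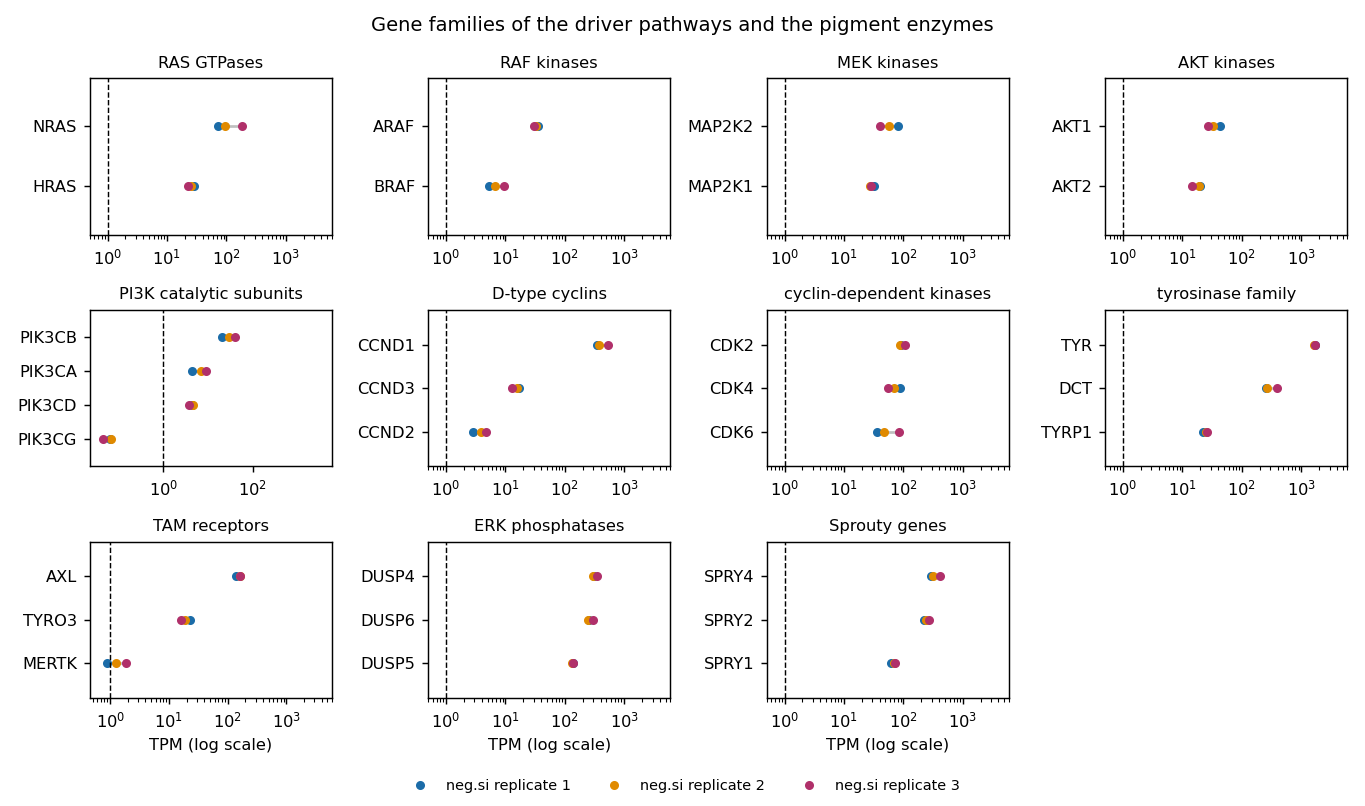
Level (TPM, log scale) of the members of 11 gene families in the 3 neg.si libraries, with a grey bar from the lowest to the highest library and a dashed line at 1 TPM. The D-type cyclin and tyrosinase families each show a fixed order with no overlap, as do NRAS over HRAS and ARAF over BRAF, the last of which turns in counts not divided by length, whereas PIK3CA and PIK3CD, and CDK4 and CDK6, overlap.

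Of the PI3K-AKT-mTOR genes, 17 of 18 analysed (94.4%) were on, against 74.1% of all protein-coding genes. Among the catalytic subunits PIK3CB stood at 20.8, 30.3 and 41 TPM, 4.76, 4.38 and 4.45 times PIK3CA. PIK3CA at 4.37, 6.91 and 9.20 TPM and PIK3CD at 4.49, 4.52 and 3.82 TPM overlapped, their order turning in replicate 1. PIK3CG, the subunit known from leukocytes, was off at 0.0643, 0.0664 and 0.0444 TPM. AKT1 at 42.8, 32.9 and 27.1 TPM lay above AKT2 at 20.1, 18.7 and 14.4 TPM in every library, but below it in every library when counts were divided by the length of the longest transcript. The phosphatase INPP4B was on at 23, 27 and 41.4 TPM, highest in replicate 3. RHEB, the GTPase that activates mTOR, was the highest of the list at 110.4, 124 and 151 TPM, and MTOR itself varied least in TPM at 32, 32.6 and 32.6 TPM. RPTOR, RICTOR, PDPK1, TSC1 and TSC2 had means of 22.1, 16.1, 9.57, 9.01 and 7.29 TPM. The regulatory subunits PIK3R3 and PIK3R1 were at 15.8 and 5.12 TPM, and PIK3R2 was not analysed here.

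In the list of cell cycle gate genes around RB1, 16 of 17 analysed genes (94.1%) were on, against 74.1% of all protein-coding genes. CCND1 exceeded the other D-type cyclins by a wide margin, at 20.5, 24.4 and 42 times CCND3, which stood at 16.8, 15.4 and 12.7 TPM above CCND2 at 2.83, 3.94 and 4.66 TPM. The cyclin-dependent kinases were closer. CDK2 was at 91.3, 87.7 and 105 TPM, CDK4 at 87.3, 68.5 and 55.2 TPM and CDK6 at 35.6, 48 and 84 TPM, with CDK6 above CDK4 in replicate 3 only. CDK4 shares exon bases with TSPAN31, and 55.8% of its exons were clear of other genes. RB1 was on at 48.2, 62.4 and 89.6 TPM. The kinase inhibitor CDKN1A (p21) was at 371, 331 and 276 TPM, while the ubiquitin ligase gene MDM2 was at 16.7, 25.1 and 58.5 TPM with its highest level in replicate 3. CDKN1B (p27) was at 13.1, 12.6 and 15 TPM and CDKN2C (p18) at 67.4, 48.3 and 52.3 TPM. E2F1, CCNE1, CCNE2 and MDM4 had means of 34.1, 17, 12.3 and 6.92 TPM. TERT, the catalytic subunit of telomerase, was between at 0.101, 0.244 and 0.136 TPM. CDKN2A and CDKN2B were not analysed here.

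Of 23 melanoma driver genes analysed, 22 (95.7%) were on, against 74.1% of all protein-coding genes, the exception being TERT. Besides those above, the antigen presentation gene B2M stood at 1183, 1215 and 1277 TPM, RAC1 at 130.0, 140.5 and 151 TPM, the splicing factor SF3B1 at 112, 124 and 164 TPM and CTNNB1 (beta-catenin) at 87.2, 117 and 152 TPM. BAP1, PPP6C, IDH1, DDX3X and GNAQ lay at means of 50.3 to 65.9 TPM. GNA11 was at 27.2, 21.4 and 14.2 TPM, under GNAQ in every library (in replicates 2 and 3 only with the longest transcript as length), EZH2 at 9.23, 9.15 and 14.6 TPM and ARID2 at 5.40, 7.12 and 10.2 TPM. These levels are of transcripts, and the counts do not tell mutated from normal alleles.

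The receptor tyrosine kinases held the lowest share of genes on among the signalling lists, 17 of 26 analysed (65.4%), against 74.1% of all protein-coding genes. The list had 20 genes on at a limit of 0.5 TPM, at 1 CPM with no length and with mitochondrial genes left out of the scaling, and at 1 CPM the protein-coding genes on were 11633 of 15277, so the lower share did not hold there. AXL was the highest, at 6.0, 8.68 and 10.1 times its relative TYRO3, which stood at 22.8, 18.6 and 16.3 TPM, and MERTK straddled the limit at 0.895, 1.25 and 1.89 TPM. ERBB3 at 48.1, 53.2 and 69.4 TPM exceeded ERBB2 at 23.6, 18 and 16.7 TPM without overlap, while EGFR was near 0 and ERBB4 was not analysed here. EPHA2, the collagen receptor DDR2 and IGF1R were close to each other, at 41.7, 34.9 and 28.1, at 29, 31.8 and 41.8 and at 30.4, 33 and 38.8 TPM. DDR1, FLT1, FGFR1, ROR1 and INSR had means of 23.8, 17, 16.1, 11.4 and 8.77 TPM, and MST1R, MET, FGFR4, RET and PDGFRB of 1.41 to 2.38 TPM. FGFR3, KDR, ALK, PDGFRA and EGFR were among those between and CSF1R and NTRK3 off, NTRK3 at 0.00373, 0.0231 and 0.0129 TPM. KIT, FLT3, FGFR2, NTRK2 and FLT4 were not analysed here.

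Cancer-testis antigens are genes of the germ line that many melanomas switch on. Of 23 analysed, 12 (52.2%) were on, against 74.1% of all protein-coding genes. PRAME, a target of immune therapies, stood at 219, 208 and 242 TPM and CSAG1 at 191, 143 and 124 TPM. PRAME lay above CSAG1 in each library without overlap. MAGEA6, MAGEA12 and MAGEA3 were at 111, 98.8 and 94.4, at 95.5, 92.7 and 93.3 and at 81.9, 71.8 and 62.6 TPM, and since these genes are near-identical copies, the split of reads between them is uncertain. MAGEA10 was at 39.1, 43 and 62.4 TPM, MAGEC2 at 34.7, 31 and 35.1 TPM, MAGEC1 at 18, 23.3 and 26.7 TPM and SSX1 at 10.7, 12.2 and 14.5 TPM. MAGEA11, PAGE5 and MAGEA2 were on below 10 TPM. MAGEA1 at 0.642, 0.422 and 0.738 TPM and CTAG2 at 0.503, 0.934 and 0.231 TPM were between, as were MAGEC3, CT83, MAGEB2, XAGE2, GAGE1, SSX2, MAGEB1 and PAGE2, and MAGEA8 was off. The family was thus split, with members over 90 TPM and members under 1 TPM in the same libraries. MAGEA4, MAGEA9, MAGEB3, MAGEB4, CTAG1B, SSX4, SSX5, XAGE1B, BAGE and CT45A1 were not analysed here.

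All 14 housekeeping genes, used as controls in many tissues, were on. ACTB stood at 1506, 1379 and 1479 TPM, PPIA at 1476, 1142 and 972 TPM, RPLP0 at 678, 551 and 435 TPM and YWHAZ at 292, 311 and 397 TPM, of which ACTB varied least in TPM. TUBA1B, HPRT1, GUSB and TBP had means of 158, 131, 68.4 and 15.8 TPM. SDHA, a subunit of succinate dehydrogenase with close pseudogene copies, was the lowest at 2.24, 3.23 and 2.72 TPM, and how many of its reads were lost to copies was not tested.

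RIPK4, the kinase silenced elsewhere in the study, was on in the control cells. The gene spans 41739369 to 41767089 on the minus strand of chromosome 21 (GRCh38.p13) and received 2656, 2298 and 1739 counts. Its level was 66.1, 59 and 49.7 TPM (58.3 ± 8.21 TPM, n = 3), highest in replicate 1 and lowest in replicate 3, and above 84.7% of the genes that were on.

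By Gene_type, protein-coding genes held 98.2%, 98% and 97.9% of the counts, while 1277 lncRNA genes were on, 20.7% of those with a level, and lncRNAs held 0.744%, 0.767% and 0.996%, highest in replicate 3. The lncRNA with the highest mean was LINC02732 on chromosome 11 at 201, 191 and 211 TPM. NORAD, a lncRNA that binds PUMILIO proteins, had the next mean at 87.7, 108 and 225 TPM, with replicate 3 more than 2 times the others and above LINC02732 there. DSCR8 stood at 131, 113 and 96 TPM, MIR3142HG at 95.5, 90.4 and 152 TPM and ARHGAP5-AS1 at 105, 86.6 and 108 TPM, and for ARHGAP5-AS1, which overlaps ARHGAP5, the reads of both strands cannot be told apart in these unstranded counts. Several of the highest rows of small RNAs lay inside exons of other genes, and the origin of their reads was not tested. MIR5047, listed at 658, 692 and 1275 TPM, and MIR3064 at 53, 84.3 and 198 TPM lie wholly within exons of the RNA helicase gene DDX5, and SNORA18, SNORA40 and SNORA8 within exons of TAF1D, SNORD73A within RPS3A and SNORD96A within RACK1. Mature small RNAs are not captured by poly(A) selection, and these rows do not measure them. MIR3125, MIR324 and MIR4482, free of exon overlap, had 10 to 51 counts in any library. The highest snRNA row, RNU6-26P, had 19, 11 and 53 counts.

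Pseudogene rows held few counts in all, yet some stood high by length. The processed pseudogene RPS2P5 was listed at 356, 325 and 289.9 TPM and the transcribed pseudogene AC243919.1 on chromosome 15 at 1029.7, 932 and 975 TPM, steady over the cultures. HMGB1P6, EEF1A1P5, AC116533.1 and RPL7P9 were each highest in replicate 1, at means from 81.5 to 153 TPM. MTND2P28 and MTCO1P12, nuclear copies of mitochondrial genes like MTATP6P1, had means of 329 and 148 TPM. FRG2DP, FAM86DP, RPL23AP82 and STAG3L4 led the transcribed unprocessed class at means from 173 to 329 TPM, each with under 50% of its exon bases clear of other genes. Whether such reads came from the pseudogene or from its parent gene was not tested. Among genes still to be experimentally checked (TEC), AC022400.6 had the highest mean, at 15.3, 13.8 and 21 TPM.

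Next to the tumour suppressor gene CDKN2A the levels changed from gene to gene. Within 1 Mb of CDKN2A on chromosome 9 the annotation holds 60 genes, 23 of them protein-coding, of which 4 protein-coding genes were analysed. MTAP, a neighbour often deleted together with CDKN2A in tumours, was on at 4.18, 5.34 and 9.65 TPM, highest in replicate 3. KLHL9 stood at 15.8, 17.3 and 21.3 TPM and FOCAD at 6.84, 8.81 and 10.4 TPM. HACD4 was between at 0.327, 0.697 and 0.777 TPM. The lncRNA CDKN2B-AS1, which begins beside CDKN2A, had 0, 0 and 3 counts, which allowed up to 0.0947 and 0.0982 CPM in replicates 1 and 2. Most of the genes not analysed here lie among the interferon genes of this region.

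**Figure D4:**
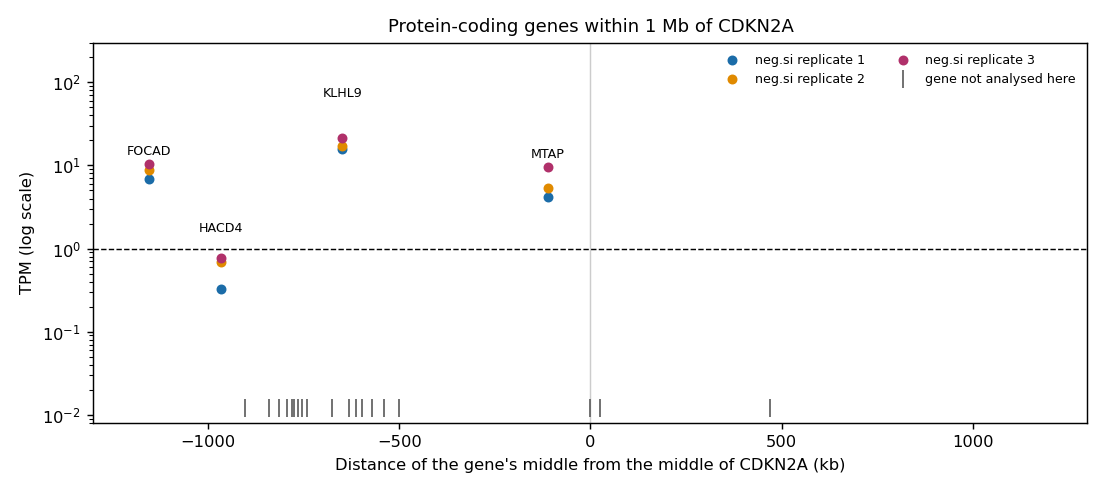
Level (TPM, log scale) of protein-coding genes that lie within 1 Mb of CDKN2A in the 3 neg.si libraries, against the distance in kb between the middles of the genes, with a dashed line at 1 TPM. Ticks at the bottom mark genes not analysed here and hold no value. FOCAD, KLHL9 and MTAP lie above the line in every library.

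Promoter composition differed between genes on and genes off or between. For protein-coding genes with 1 RefSeq promoter, the median number of CG dinucleotides in the 250 bases before the start was 11 for the 387 genes off and for the 1664 between, and 21, 22, 22 and 20.5 for the genes on at 1 to 10, 10 to 100, 100 to 1000 and at least 1000 TPM. Promoters with under 5 CG dinucleotides made up 30.0% of the genes off and 29.9% of those between, and 7.01%, 2.77%, 3.34% and 9.52% of the genes on in the same 4 bins, the last being 4 of 42. The letters TATAAA between positions -40 and -11 on the strand of the gene were present in 5.43% of the genes off and 5.35% of those between. For the genes on, the shares were 2.08%, 1.17% and 4.01% at 1 to 10, 10 to 100 and 100 to 1000 TPM. At 1000 TPM or more it was 4 of the 42 promoters (9.52%). Over all 8520 protein-coding genes with 1 promoter and a level the share was 2.64%. These are counts over genes that share libraries and are given as a description.

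The spread between cultures was measured as the CV of CPM after TMM scaling, over 8988 protein-coding genes of at least 10 CPM. The median CV was 16.9%, with quartiles of 9.32% and 26.3%, where counting alone gives 5.70% at 10 CPM. A CV above 50% was seen for 125 genes (1.39%) and one below 5% for 836 (9.30%). The common biological coefficient of variation by edgeR was 0.256. The pairs of cultures were not equally close. Replicates 1 and 2 differed by more than 2-fold in 18 genes, replicates 2 and 3 in 58, and replicates 1 and 3 in 985 (11.0%), with median absolute log2 differences of 0.20, 0.29 and 0.46. Without replicate 3 the common coefficient was 0.151, without replicate 1 it was 0.226, and without replicate 2 it was 0.341. The count of genes off, 1395, was 1891, 1887 and 2304 without replicates 1, 2 and 3, since fewer libraries then had to lie under the limit. Replicate 2 was the middle library for most genes, since 44.8% were highest in replicate 1 and 40.1% in replicate 3.

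The deviations followed GC content. In the 1797 genes with the lowest GC content (29.2% to 39.97% of the bases of the longest transcript) the median log2 deviation from the mean of the 3 libraries was -0.25 in replicate 1 and 0.26 in replicate 3. In the 1797 with the highest (56.7% to 71.7%) it was 0.37 and -0.44. The medians of replicate 2 stayed between -0.02 and 0.06. The median CV was 11.1% in the 1797 genes with the middle GC content and 27.5% in those with the highest. Transcript length moved with it, since rho between the length of the longest transcript and the deviation was -0.474 in replicate 1 and 0.459 in replicate 3. After a smooth trend on GC content was taken out of each library, the median CV was 10.2% and 27 genes exceeded 50%. The part of RNA quality, library preparation or the cells themselves in this difference was not tested.

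**Figure D5:**
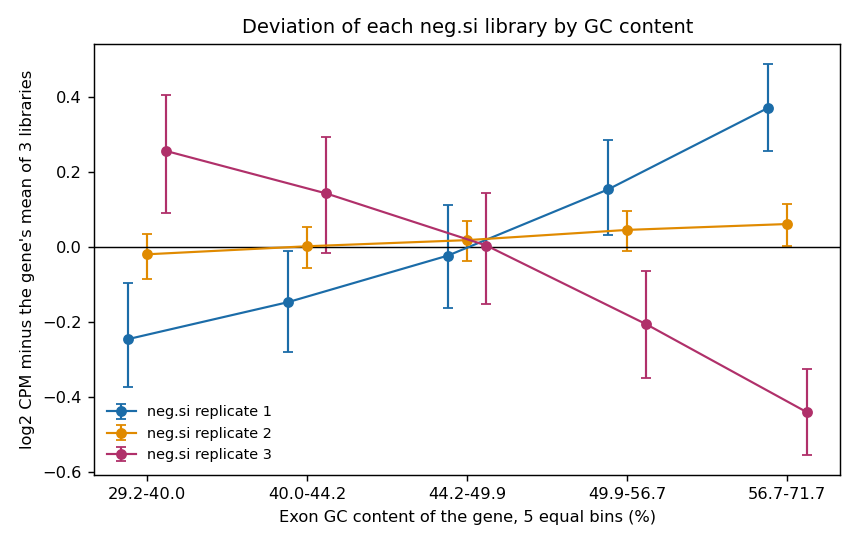
Deviation of each neg.si library from the mean log2 CPM of the 3, in 5 equal bins of the GC content of the longest transcript, over 8983 protein-coding genes of at least 10 CPM. Points are medians and bars run from the lower to the upper quartile of genes. Replicate 1 goes from -0.25 to 0.37, replicate 3 from 0.26 to -0.44, and replicate 2 stays near 0.

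Of the 10 genes with the highest CV, 8 were highest in replicate 3 and lowest in replicate 1. MOB1B, a co-activator of LATS kinases, was at 17, 21.5 and 70.7 CPM (CV 81.9%), the mitotic kinesin KIF14 at 10.6, 18.3 and 46.3 CPM and NFAT5, a factor of the response to salt stress, at 17.8, 20.1 and 56.6 CPM. LRRC58, THAP5, BIVM, ZNF37A and C2orf69 had the same highest and lowest library. The 2 exceptions were highest in replicate 1, the RNA-binding gene LSM7 at 48.3, 23.2 and 8.13 CPM and SELENOH at 19.5, 7.84 and 5.61 CPM. The longest transcript of LSM7 had 62.1% GC and that of SELENOH 51.3%, against 34.1% to 41.1% for the other 8. The 10 with the lowest CV had values under 0.5%. They included BAG2, TBC1D24, FBXO42, SH3PXD2A, SLC43A3, RALB, AKAP1, TCP11L1 and SRI, with the small GTPase gene RALB at 138, 137 and 137 CPM. Their means ran from 10.2 CPM (TBC1D24) to 222 CPM (SLC43A3), so the 5.70% that counting alone gives at 10 CPM is not the reference for most of them. They are the lowest of 8988 genes over 3 libraries. By group, the median CV was 31.9% for 80 ribosomal protein genes, 11.2% for 16 pigment genes, 18.1% for 22 driver genes and 23.6% for 17 PI3K-AKT-mTOR genes.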

How the data were processed

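Total RNA of WM266.4 cells was enriched for poly(A) by the authors and read in pairs on a BGISEQ-500 instrument. Adapters were cut with Cutadapt, TopHat placed the pairs on GRCh38.p13, and HTSeq assigned them to genes, ignoring the strand. FastQC is named in the submitters' processing notes. The deposited counts are whole numbers per gene and library, and no replicates were pooled. The deposited normalized values are a signal, the counts divided by a DESeq2 size factor per library, and served as an alternative only. The authors' columns of fold change, log2 fold change with its standard error, and p-value compare the knockdown with the control and were not used. Each column of per-sample values was mapped to a labelled sample.

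Levels and spreads were computed from the 3 neg.si libraries alone, so no groups were compared and no test was made. The rows of the table reflect a minimum over all 6 libraries, and the numbers of genes with a level and of genes off depend on it. Exon lengths and GC content came from GENCODE 44, matched by gene ID for 24416 of 24526 genes. GC content is that of the longest transcript of a gene. The other 110 genes held at most 0.0709% of the counts of a library. TPM was computed from counts and merged exon length. CPM for the spread were scaled by TMM in edgeR 4.0.16 (R 4.3.3), for protein-coding genes of at least 10 CPM, and the common coefficient was estimated for genes with at least 10 counts over the 3 libraries and was tested on simulated data. Other steps used Python 3.11.15, pandas 2.3.3, scipy 1.17.1 and statsmodels 0.14.6. Depth was 30056850 to 31688095 counts per library, and intervals cover counting error only, since read pairs without molecular identifiers are not independent molecules. Promoters were from RefSeq (GRCh38.p14).

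The 17 gene lists, with 272 symbols of which 240 were analysed, and all limits were chosen with earlier results of these data known. Genes named besides the list members were the 15 highest by level and by counts, the 5 highest of each gene type with at least 100 genes, the 10 highest and 10 lowest in CV, and the genes within 1 Mb of CDKN2A. Some genes that these rules name are not reported here. Genes with no row were to be counted as off and were instead left out. Alternatives were other limits, lengths, scalings and filters, and leaving out each library.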

Additional observations from a re-analysis of the deposited data

How the results depend on the processing

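The number of genes on stayed between 12835 and 15231 under every alternative, against 13444. The number off, 1395, was 2545 at a limit in CPM with no length and 815 with mitochondrial genes left out of the scaling, and ran from 1887 to 2304 when 1 library was left out. Of the 17 lists, 2 moved by more than 1.5 times in the number of genes on. The endothelial markers had 2 on at a limit of 0.5 TPM, at 1 CPM with no length and without mitochondrial genes, and 0 to 1 when a library was left out (1 without replicate 2), against 0. The immune markers had 1 on at 1 CPM with no length, and 3 at a limit of 0.5 TPM, without mitochondrial genes and without replicate 3, against 2. With exon bases shared with other genes left out of the length, an alternative chosen after seeing the data, the dedifferentiated genes went from 19 to 18 on, the receptor tyrosine kinases from 17 to 16 and the cancer-testis antigens from 12 to 11, and the other lists kept their numbers.

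The levels of the 240 listed genes moved more than the lists. Without mitochondrial genes in the scaling all 240 rose, by 1.56 to 1.70 times. With the longest transcript as length, levels were 0.770 to 2.89 times the reported ones and 37 genes moved by over 1.5 times, and with unshared exon length 0.860 to 1.69 times and 3 genes. Of 22 orders between genes given in the text, 20 held in all libraries with the longest transcript, the exceptions being AKT1 over AKT2 and GNAQ over GNA11. In counts with no length, a comparison chosen after seeing the data, 18 held in all libraries, the exceptions being ARAF over BRAF and CDK2 over CDK6, which turned in every library, and SOX10 over MITF and SNAI2 over IRF4, which turned in replicate 3.

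With mitochondrial genes left out of the total, the shares of counts were 1.57% for endoplasmic reticulum chaperones, 0.925% for heat shock proteins, 4.67% for matrix genes, 1.46% for actin, tubulin and vimentin, 98.6% for protein-coding genes and 19.9% for the 100 genes with the most counts, against 28.0% with them. The first 4 shares rise with the smaller total, and the last falls because mitochondrial genes leave the 100. The authors' normalized values and a filter of 10 counts moved no share by more than its SD.

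The median CV, 16.9%, was 10.2% after removal of the trend on GC content and ran from 9.99% to 22.5% when 1 library was left out. Genes with a CV over 50%, 125, numbered 27 after that removal, 2163 with no filter on low counts, and 9 to 752 when 1 library was left out, 9 without replicate 3, 43 without replicate 1 and 752 without replicate 2. The common coefficient of variation ran from 0.151 to 0.341. DESeq2 and upper-quartile scaling gave median CVs of 16.95% and 16.87%. The cause of these differences was not tested. No paired analysis was possible because the results come from 1 group and from no test.

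The precision rests on 3 cultures of 1 line. At 1 TPM a gene of median length had 31.4 to 36.0 counts, and under 0.1 TPM a level rests on a few counts, so genes off are genes not detected above that limit at this depth. Levels of genes that share exons or near-identical copies depend on how reads were split.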
